A study of Canis lupus familiaris with 8 samples.

Results

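Transcripts of 3 costimulatory genes, CD28, CD40LG and TNFRSF4, were followed in single TCRαβ+ T cells from dog blood. They are 3 of the 20257 genes counted, chosen by name, with the identifiers ENSCAFG00000012872 (CD28), ENSCAFG00000018945 (CD40LG) and ENSCAFG00000019328 (TNFRSF4) in the CanFam 3.1 gene list. A T cell needs a signal from its antigen receptor and a second class of signals from costimulatory receptors to become fully activated. CD28 is the costimulatory receptor of resting T cells and binds CD80 and CD86 on antigen-presenting cells, and it competes for these ligands with the inhibitory receptor CTLA4. CD40LG is the ligand by which helper T cells reach CD40 on B cells, macrophages and dendritic cells. TNFRSF4 (OX40) is a receptor of the tumour necrosis factor (TNF) family that appears after activation and on regulatory T cells, where it binds TNFSF4 on antigen-presenting cells.

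The cells came from 4 healthy Beagles, a female of 5 years (dog 1), males of 7 years (dogs 2 and 3) and a male of 9 years (dog 4). Blood mononuclear cells were sorted with an antibody to canine TCRαβ, frozen, thawed together and processed in a single run of 5' droplet sequencing, with 1 gene expression library and 1 V(D)J library for each dog. The dog is the replicate (n = 4), and a dog cannot be told apart from its library, its age or, for dog 1, its sex. No cells were stimulated after sampling, so all values describe unstimulated blood T cells that had been frozen and thawed.

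After filtering, 7096, 8454, 8109 and 8250 cells of dogs 1 to 4 were kept, with a median of 3599 to 3931.5 unique molecular identifiers (UMIs) per cell. The T cell markers CD3D, CD3E, CD3G, CD2 and LCK together made up 2833 to 3097 of every 1000000 UMIs (CPM) in each dog, whereas lists of B cell, monocyte, dendritic cell, platelet and natural killer cell markers each summed to at most 6.4 CPM. Of these markers, CD14, FCN1, PF4, GP9 and CLEC9A were missing from the gene list, and CD22, PAX5 and CSF1R had 0 UMIs. The sums say nothing about the missing genes. Pairs of libraries shared 81 to 113 cell barcodes. The kept cells held 13930 UMIs of CD28, 8817 of CD40LG and 1314 of TNFRSF4, and most cells showed 0 UMIs of each, so a cell without a UMI is not shown to lack the transcript.

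Cells were gated by detection (at least 1 UMI). A cell with CD4 and without CD8A was single-positive (sp) for CD4, and the reverse for CD8A. This gave 13247 CD4 sp cells, 6427 CD8A sp cells and 725 double-positive cells. A further 11510 cells (36.1%) showed neither gene and are called double-negative. The study set such cells aside, because it could not tell true double-negative cells from cells whose CD4 went undetected. The most UMIs counted in any CD4 sp cell were 8 of CD28, 7 of CD40LG and 16 of TNFRSF4. Levels are given in CPM of all UMIs of the gate in each dog, and differences were tested on UMI sums per dog and gate with edgeR's quasi-likelihood test, with the dog as a block and p-values adjusted over all genes tested.

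All 3 genes were higher in CD4 sp than in CD8A sp cells of every dog. CD28 stood at 99.4, 129.5, 123 and 161 CPM in the CD4 sp cells of dogs 1 to 4 and at 35.0, 65.0, 52.7 and 40.1 CPM in their CD8A sp cells. CD40LG was measured at 79.9, 84.2, 82.7 and 91.7 CPM against 11.3, 21.4, 17.1 and 12.3 CPM. TNFRSF4 was measured at 12.1, 11.7, 12.98 and 16.2 CPM against 1.41, 1.96, 1.25 and 2.36 CPM. The ranges of the 2 gates did not overlap for any of the 3 genes.

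The log2 fold change between CD4 sp and CD8A sp cells was 1.43 ± 0.15 (SE) for CD28 (adjusted p = 0.000254), 2.44 ± 0.14 for CD40LG (adjusted p = 1.55e-05) and 2.92 ± 0.17 for TNFRSF4 (adjusted p = 1.53e-05). In this comparison 27.1% of the 10118 genes tested passed the threshold of 0.05. Each of the 9 alternative analyses kept these 3 calls. The lead of CD4 sp cells ran between 2.69-fold for CD28 and 7.59-fold for TNFRSF4, with 95% intervals of the log2 value from 1.09 to 1.76 and from 2.54 to 3.31. TNFRSF4 had 172, 182, 147 and 220 UMIs in the CD4 sp cells of dogs 1 to 4. In their CD8A sp cells it had only 4, 12, 11 and 19 UMIs.

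The shares of cells with a UMI moved with the levels. CD28 was detected in 38.4% ± 7.2 (SD, n = 4) of the CD4 sp gate and 14.9% ± 4.1 of the CD8A sp gate, CD40LG in 26.3% ± 2.3 and 4.75% ± 1.4, and TNFRSF4 in 4.45% ± 0.64 and 0.638% ± 0.23. Median depth was 3747 to 4091.5 UMIs in CD4 sp and 3586.5 to 3932 UMIs in CD8A sp cells. After thinning every cell to 2000 UMIs, which left out 4749 shallower cells, the shares were 21.2% and 7.51% for CD28, 15.1% and 2.22% for CD40LG and 2.19% and 0.288% for TNFRSF4. Here and in all later thinned values, gates were set again on the thinned counts. Cells that lost their UMIs of CD4, CD8A or another gate gene therefore changed gate. The CD4 sp gate then held 2296, 2274, 1803 and 1993 cells in dogs 1 to 4, and the CD8A sp gate 582, 1140, 1907 and 1736.

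Free RNA in the droplets can give a UMI to a cell that does not use the gene. No cell type that lacks all 3 genes was sorted, so this background share was not measured. In the 982 CD8A sp cells with GZMB and FCER1G, a subset in which the genes were low, CD28 was detected in 4.78%, CD40LG in 0.978% and TNFRSF4 in 0.175% of cells, at a median depth of 3372 to 3830.5 UMIs, and after thinning in 2.79%, 0.250% and 0.113%. The ratio of CD28 to CD40LG UMIs was 1.51 ± 0.21 (SD, n = 4) in CD4 sp, 3.12 ± 0.10 in CD8A sp and 6.69 ± 1.41 in GZMB+ CD8A sp cells. The part of free RNA in these values was not tested.

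Relatives of the 3 genes were also called between the gates, where 13.6% of all genes tested were higher in CD4 sp cells and 13.5% lower. Of the 5 receptors of the CD28 family, 4 were higher in CD4 sp cells, CD28 included, among them CTLA4 with a log2 fold change of 1.79 ± 0.17, while the inhibitory receptor PDCD1 was lower at -0.85 ± 0.19. Of 9 TNF receptors tested out of 15 listed, 3 were higher, TNFRSF4 included, and 2 lower. TNFRSF18 (GITR), a receptor of regulatory and activated T cells whose gene lies next to TNFRSF4 in the RefSeq table of the UU_Cfam_GSD_1.0 assembly, was higher by 2.43 ± 0.21, and the B cell survival receptor TNFRSF13C was lower at -1.36 ± 0.21. Of 13 TNF ligands tested out of 14, 7 were higher, including CD40LG and TNFSF13B at 1.73 ± 0.10, and 2 were lower, namely the death ligand FASLG at -3.75 ± 0.17 and TNFSF14 at -1.73 ± 0.20. Of the 29 signalling genes downstream of the antigen receptor and CD28, 6 were higher and 9 lower (among the lower was the kinase ZAP70 at -0.60 ± 0.05), with a median log2 fold change of -0.02 against 0.00 for all genes.

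Double-negative cells had levels whose ranges overlapped those of CD4 sp cells. They were shallower, with medians of 3232 to 3625 UMIs, and how many of them were CD4 cells with undetected CD4 was not measured. CD28 stood at 100.2, 125, 117 and 161 CPM, CD40LG at 80.5, 87.8, 78.1 and 94.9 CPM and TNFRSF4 at 12.6, 11.002, 11.1 and 15.4 CPM in dogs 1 to 4. TNFRSF4 in dogs 2 and 3 lay below the lowest CD4 sp value, and all values lay above the ranges of CD8A sp cells. Double-positive cells lay between the gates for CD28 (97.4 ± 21.1 CPM, SD, n = 4) and CD40LG (53.3 ± 11.7 CPM) and spread widely for TNFRSF4 (8.99 ± 5.18 CPM). Double-positive cells were deeper, with medians of 5418 to 5955 UMIs, and doublets were not called.

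**Figure D1:**
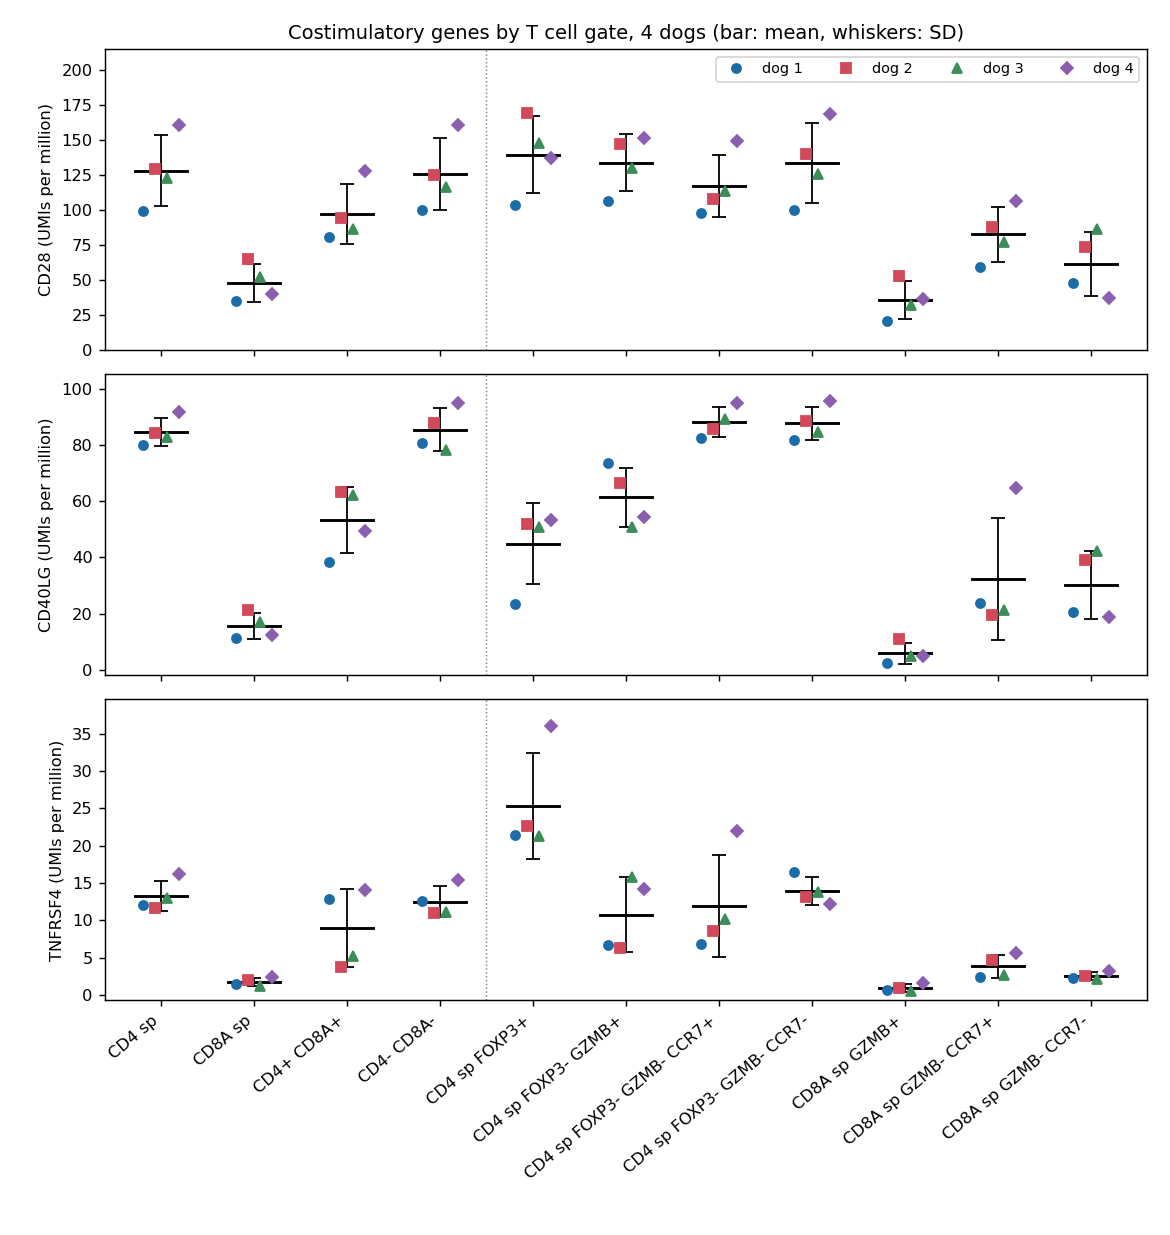
Levels (CPM) of CD28, CD40LG and TNFRSF4 (vertical axes, linear) in 11 gates of T cells (horizontal axis), with a symbol for each dog, a bar for the mean and whiskers for the SD. The 4 gates left of the dotted line split all cells by CD4 and CD8A and the 7 gates to its right do not overlap each other. CD8A sp GZMB+ cells have the lowest mean of these gates for each gene, and TNFRSF4 has its highest mean in FOXP3+ CD4 sp cells.

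When CD4 sp and CD8A sp cells were divided into 7 gates that share no cell and set beside the double-negative and double-positive cells, the order differed between the genes. CD28 had its highest mean in FOXP3+ CD4 sp cells (139.8 ± 27.6 CPM, SD, n = 4) and lowest in GZMB+ CD8A sp cells (35.8 ± 13.5 CPM), and every gate's range over the dogs overlapped that of its neighbour in the order. The gates come from the same dogs, however, and at 5 of the 8 steps the higher gate led in 4 of 4 dogs. These steps were not tested. CD40LG was highest, at 88.1 ± 5.3 CPM, in CCR7+ CD4 sp cells without FOXP3 and GZMB and lay at 87.6 ± 5.9 CPM in their CCR7- counterparts. Neighbours did not overlap at 2 steps. The upper step lay between double-negative cells (85.4 ± 7.6 CPM) and GZMB+ CD4 sp cells without FOXP3 (61.3 ± 10.6 CPM). The lower step lay between GZMB-CCR7- CD8A sp cells (30.2 ± 12.2 CPM) and GZMB+ CD8A sp cells (5.90 ± 3.61 CPM). TNFRSF4 was set apart at the top in FOXP3+ CD4 sp cells (25.4 ± 7.1 CPM) and at the bottom in GZMB+ CD8A sp cells (0.940 ± 0.481 CPM). All neighbours between them overlapped. The bottom gate rested on 1, 3, 3 and 8 UMIs of TNFRSF4 in dogs 1 to 4. All GZMB- CD8A sp cells together held 3, 9, 8 and 11, so this step rests on few UMIs. The higher gate led in 4 of 4 dogs at 3 of 8 steps for CD40LG and for TNFRSF4.

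CCR7, the receptor that guides naive and central memory T cells into lymph nodes, was detected in 5304 CD4 sp and 772 CD8A sp cells. CD28 was higher with CCR7 in CD8A sp cells and slightly lower in CD4 sp cells. Among CD8A sp cells CD28 stood at 60.0, 94.2, 82.9 and 115 CPM with CCR7 and at 29.8, 58.1, 46.2 and 35.0 CPM without it. The CCR7+ cells were higher in each dog and the ranges did not overlap (log2 fold change 1.09 ± 0.13 (SE), adjusted p = 2.02e-06, where 16.8% of 8231 genes passed). In CD4 sp cells CD28 stood at 98.2, 111, 115 and 148 CPM with CCR7 and at 100.5, 144, 129 and 166 CPM without it. The CCR7+ cells were lower in each dog by a small step inside overlapping ranges (-0.16 ± 0.05, adjusted p = 0.0276, where 23.1% of 9676 genes passed). This call was lost in 6 of 9 alternatives (adjusted p 0.00407 to 0.650), among them the analyses without dog 2 (-0.10) and without dog 3 (-0.16).

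The difference of the CCR7 effect between CD4 sp and CD8A sp cells was itself tested. It was -1.28 ± 0.20 (SE, log2) for CD28 (adjusted p = 0.00132), with a 95% interval from -1.69 to -0.86, and 2.46% of 9989 genes passed this test. Without the dog as a block the value was -1.28, and the call was lost (adjusted p 1.47e-07 to 0.0635 over 9 alternatives). For CD40LG the difference was -0.81 ± 0.31 (adjusted p = 0.230) and for TNFRSF4 -1.37 ± 0.73 (adjusted p = 0.439). The 95% interval reached from -1.47 to -0.15 for CD40LG and from -2.90 to 0.16 for TNFRSF4, and both intervals held the value of CD28. TNFRSF4 passed the filter on low counts here through CD4 sp cells. Its CD8A sp side, below that filter by itself, held 1, 4, 4 and 2 UMIs with CCR7.

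CD40LG in CD8A sp cells was measured at 22.8, 23.8, 18.6 and 50.5 CPM with CCR7 and 8.95, 20.8, 16.7 and 9.69 CPM without it. It was higher with CCR7 in 4 of 4 dogs, with overlapping ranges and small steps in dogs 2 and 3 (0.89 ± 0.28, adjusted p = 0.0292). The call was lost in 4 of 8 alternatives (adjusted p 0.000321 to 0.286), with 0.43 without dog 4 and 0.80 without dog 1. In CD4 sp cells CD40LG gave 0.09 ± 0.05 (adjusted p = 0.173), with a 95% interval from -0.01 to 0.20. Cells with CCR7 were deeper in CD8A sp, with median UMIs of 4181 to 5061.5 against 3452.5 to 3856, and CD40LG did not pass the filter after thinning.

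TNFRSF4 in CD4 sp cells was at 7.20, 9.49, 11.3 and 21.4 CPM with CCR7 and at 16.7, 13.4, 14.4 and 14.1 CPM without it. Dogs 1 to 3 were lower with CCR7 and dog 4 was higher, and no call was made over the 4 dogs (-0.29 ± 0.20, adjusted p = 0.325). Without dog 4 the value was -0.65 and passed (adjusted p 0.00427 to 0.987 over 9 alternatives). In CD8A sp cells only 1, 4, 4 and 2 UMIs of TNFRSF4 fell into CCR7+ cells, which was below the filter on low counts (with no filter 1.10, adjusted p = 0.387). Summed over the dogs, 11 UMIs in 772 cells and 35 in 5655 cells gave a ratio of 1.86 with a 95% interval of counting error from 0.851 to 3.74.

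Among the listed relatives, CTLA4 also differed between the lineages, at 1.83 ± 0.13 in CD8A sp and -0.18 ± 0.05 in CD4 sp cells, with a difference of -2.04 ± 0.20 (adjusted p = 2.53e-05). The difference was also negative for TRAF1 (-0.94 ± 0.24), an adaptor of TNF receptors, and the transcription factor NFATC1 (-0.61 ± 0.15), and positive for PIK3R1 (1.16 ± 0.14), the regulatory subunit of a lipid kinase, and the kinases FYN (0.57 ± 0.08) and ZAP70 (0.40 ± 0.09). In both lineages CCR7+ cells had lower FASLG (-1.66 ± 0.17 in CD8A sp and -1.11 ± 0.20 in CD4 sp), lower TNFSF14 (-1.50 ± 0.26 and -0.96 ± 0.19) and higher TNFSF8 (1.14 ± 0.10 and 0.52 ± 0.07), the ligand of CD30. Of the 5 members of the CD28 family, 1 was higher and 4 lower with CCR7 in CD4 sp cells, where the higher one was the inhibitory receptor BTLA at 0.73 ± 0.23. PIK3R1 was higher there as well, at 0.55 ± 0.05. Of 4 tested in CD8A sp cells, 3 were higher and PDCD1 was lower at -1.48 ± 0.23, and LTB, a ligand of lymphoid tissue organisation, was higher at 0.94 ± 0.07. Of the TNF receptors, 1 was higher and 6 lower among 7 tested in CD8A sp cells, and 1 was higher and 3 lower among 9 in CD4 sp cells. Over all genes tested, 8.3% were higher and 8.49% lower with CCR7 in CD8A sp cells, and 10.1% and 13% in CD4 sp cells. The lowest value among the listed genes called in CD4 sp cells was that of TNFSF9, the ligand of 4-1BB, at -1.14 ± 0.14.

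GZMB, the serine protease of cytotoxic granules, was detected in 3931 CD8A sp and 305 CD4 sp cells. CD40LG in CD8A sp cells was lower where GZMB was present, at 2.60, 11.05, 5.07 and 4.87 CPM against 21.7, 33.2, 35.4 and 24.0 CPM in GZMB- cells. Every dog was lower with GZMB and the ranges did not overlap (log2 fold change -2.31 ± 0.21, adjusted p = 3.62e-06, where 18.1% of 8958 genes passed). CD28 stood at 20.8, 53.4, 32.3 and 36.8 CPM with GZMB and at 51.9, 78.3, 83.8 and 45.4 CPM without it. It was lower in each dog, with overlapping ranges (-0.86 ± 0.16, adjusted p = 0.0016), and this call was lost without the block (-0.88, adjusted p 1.63e-15 to 0.0629 over 9 alternatives). TNFRSF4 was below the filter, at 1, 3, 3 and 8 UMIs with GZMB and 3, 9, 8 and 11 without, a ratio of levels of 0.346 over all dogs with a counting interval from 0.173 to 0.660. It was lower with GZMB in 4 of 4 dogs, and with no filter the log2 fold change was -1.53 and passed (adjusted p = 0.0419). That fit had 40698 degrees of freedom against 13.6 with the filter, so the gene's own spread over the dogs hardly entered this p-value.

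GZMB+ CD4 sp cells also had less CD40LG, by a smaller fold change than in CD8A sp cells, and no call for CD28. In CPM, mean CD40LG fell from 85.6 without GZMB to 55.7 with it in CD4 sp cells, and from 28.6 to 5.90 in CD8A sp cells. CD40LG stood at 66.4, 60.0, 43.5 and 53.1 CPM with GZMB and at 80.1, 85.3, 84.0 and 93.0 CPM without it. It was lower in each dog and the ranges did not overlap (-0.68 ± 0.16, adjusted p = 0.000806, where 9.6% of 9502 genes passed). This fit had 97.3 degrees of freedom, so the gene's own spread over the dogs weighed little in the p-value. CD28 was at 109, 153, 147 and 157 CPM against 99.3, 129, 122 and 161 CPM (0.13 ± 0.11, adjusted p = 0.567), and TNFRSF4 rested on 25 UMIs in GZMB+ cells (0.19 ± 0.33, adjusted p = 0.83). After thinning, the change of CD40LG was -1.003 and missed the threshold, with 17 to 44 GZMB+ cells left per dog (adjusted p 0.000229 to 0.307 over 9 alternatives).

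The test of the difference between the lineages gave 1.597 ± 0.327 (SE, log2) for CD40LG (adjusted p = 0.0155), 0.98 ± 0.27 for CD28 (adjusted p = 0.0678) and 1.72 ± 0.46 for TNFRSF4 (adjusted p = 0.0585), with 2.03% of 9372 genes passing. TNFRSF4 passed the filter here through its counts in CD4 sp cells. Its CD8A sp side, below the filter by itself, held 1, 3, 3 and 8 UMIs with GZMB and 3, 9, 8 and 11 without. The call for CD40LG was lost in 3 of 9 alternatives (adjusted p 2.90e-05 to 0.669), including the analysis without dog 3 (1.40). That of CD28 was gained in 3 of 9 (adjusted p 0.00075 to 0.472), including the analysis without dog 4 (1.23).

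Among the relatives in CD8A sp cells, TNFRSF18 (-1.95 ± 0.29), CTLA4 (-1.68 ± 0.16) and LTB (-0.97 ± 0.07) were lower with GZMB, whereas PDCD1 (2.22 ± 0.16), FASLG (1.99 ± 0.10) and TNFSF14 (0.87 ± 0.18) were higher. In CD4 sp cells PDCD1 (1.86 ± 0.24), CD70 (1.73 ± 0.30), the ligand of CD27, and CTLA4 (0.33 ± 0.11) were higher, and LTB (-0.57 ± 0.06), the kinase PRKCQ (-0.56 ± 0.13) and PIK3R1 (-0.42 ± 0.14) were lower. The difference between the lineages passed the test for TNFRSF18 (2.54 ± 0.47, adjusted p = 0.0093) and CTLA4 (2.0 ± 0.29, adjusted p = 0.00139), and in the other direction for FYN (-0.40 ± 0.09, adjusted p = 0.0245).

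FCER1G, the common signalling chain of Fc and natural killer receptors, was detected in 1463 CD8A sp cells. All 3 genes were low there. CD28 stood at 18.96, 25.0, 15.4 and 12.2 CPM with FCER1G and at 39.6, 79.2, 59.9 and 51.8 CPM without it, and CD40LG at 3.16, 6.87, 2.80 and 2.53 CPM against 13.7, 26.5, 19.8 and 16.4 CPM. The ranges did not overlap for either gene (-1.83 ± 0.14, adjusted p = 2.18e-05, and -2.40 ± 0.24, adjusted p = 0.000147, where 5.41% of 8504 genes passed), and no alternative that could be fitted changed either call. CD40LG rested on 2, 11, 4 and 6 UMIs in the FCER1G+ cells of dogs 1 to 4 and did not pass the filter after thinning. TNFRSF4 was counted 0, 1, 0 and 1 times in FCER1G+ cells, with 44 UMIs in FCER1G- cells. The ratio of its levels was 0.149 with a counting interval from 0.0175 to 0.571, and with no filter the log2 fold change of -2.80 did not pass (adjusted p = 0.0566).

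The CD28 relatives CTLA4 (-2.72 ± 0.23) and ICOS (-0.82 ± 0.14), the inducible costimulator, were lower with FCER1G as well, so that 3 of 4 tested members of the family, CD28 included, were lower and none higher. Among all genes tested, 2.79% were higher and 2.62% lower. The adaptor LAT was lower at -1.76 ± 0.11, and TNFRSF13C (1.42 ± 0.23), TNFSF14 (1.27 ± 0.17) and PIK3R1 (1.21 ± 0.14) were higher. The natural killer cell markers NCR1 and KLRF1 summed to 10.96 to 18.0 CPM in CD8A sp cells, with 416 UMIs of NCR1 and 5 of KLRF1, and to at most 0.177 CPM in CD4 sp cells. Their part in the FCER1G result was not tested.

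**Figure D2:**
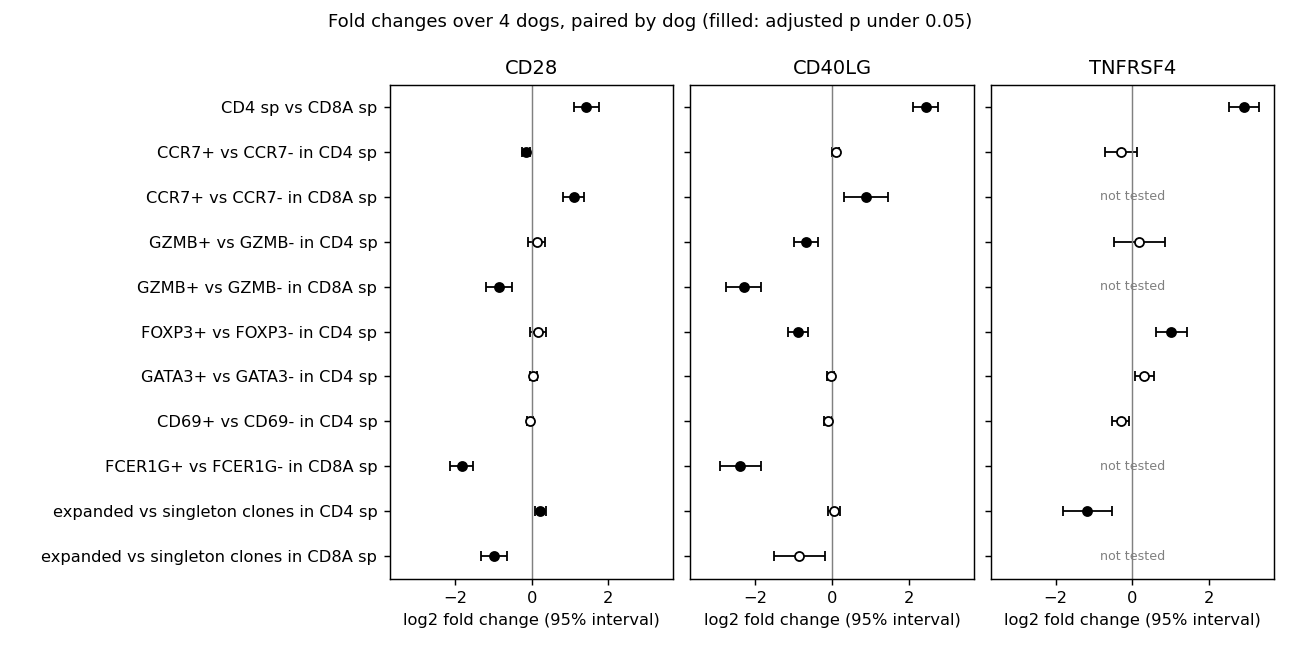
Log2 fold changes of CD28, CD40LG and TNFRSF4 (horizontal axes) in 11 comparisons (vertical axis), estimated over 4 dogs with the dog as a block, with 95% intervals. Filled symbols passed an adjusted p of 0.05. All 3 genes lie right of 0 for CD4 sp against CD8A sp, and in FOXP3+ CD4 sp cells CD40LG lies at -0.89 and TNFRSF4 at 1.02.

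FOXP3, the transcription factor of regulatory T cells, was detected in 622 CD4 sp cells, where TNFRSF4 was higher and CD40LG lower. TNFRSF4 stood at 21.5, 22.6, 21.4 and 36.0 CPM with FOXP3 and at 11.7, 10.9, 12.2 and 15.1 CPM without it. It was higher in each dog, and all FOXP3+ values lay above all FOXP3- values (log2 fold change 1.02 ± 0.20, adjusted p = 0.000593, where 13.1% of 9543 genes passed). CD40LG stood at 23.5, 51.8, 50.8 and 53.4 CPM against 82.0, 86.6, 85.7 and 94.0 CPM and was lower in each dog, again without overlap (-0.89 ± 0.13, adjusted p = 1.55e-05). CD28 was at 104, 169.6, 148 and 137 CPM against 99.2, 127, 121 and 163 CPM, with no call (0.16 ± 0.10, adjusted p = 0.300) and a 95% interval from -0.03 to 0.36. The TNFRSF4 change in FOXP3+ cells rested on 83 UMIs.

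FOXP3+ cells were deeper, with medians of 4633.5 to 4879 UMIs against 3726 to 4072.5. After thinning, 218 FOXP3+ cells with 10 UMIs of TNFRSF4 were left, TNFRSF4 kept its direction at 0.86 without passing (adjusted p 6.79e-05 to 0.709 over 9 alternatives), and CD40LG still passed. B cell markers summed to 3.91 to 17.3 CPM in FOXP3+ and 3.67 to 5.61 CPM in FOXP3- CD4 sp cells, where MS4A1 had 27 UMIs in the FOXP3+ cells and CD22 and PAX5, 2 of the 5 markers, were at 0. Monocyte markers summed to 1.88 to 8.13 and 0.390 to 0.510 CPM, with CSF1R at 0, and dendritic cell markers to 0 to 5.08 and 0.291 to 0.760 CPM. Their part in these results was not tested.

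Regulatory T cells are known for CTLA4 and TNFRSF18, and both were higher in the FOXP3+ gate. TNFRSF18 (1.67 ± 0.16), CTLA4 (1.27 ± 0.10) and TNFRSF1B (0.74 ± 0.20), a receptor of TNF, were higher, and 4 of 9 TNF receptors tested were higher, TNFRSF4 included, with none lower. TNFSF8 (-1.28 ± 0.13), LTB (-0.82 ± 0.07) and the signalling protein MALT1 (-0.87 ± 0.19) were lower. Of the 13 TNF ligands tested, 1 was higher and 3 lower, CD40LG included. The shares over all genes tested were 8.07% higher and 5.05% lower. Among CD8A sp cells FOXP3 was detected in 1, 19, 50 and 16 cells, too few for a test over dogs. Over all dogs, these 86 cells held 48 UMIs of CD28, 25 of CD40LG and 5 of TNFRSF4. This was 2.20 times the CD28 level of FOXP3- CD8A sp cells (counting interval 1.62 to 2.94) and 3.66 times that of CD40LG (2.34 to 5.49). The 5 UMIs of TNFRSF4 lay in dogs 2 (4 UMIs) and 4 (1 UMI), and the 50 cells of dog 3 held 0. The pooled ratio of TNFRSF4 levels was 6.91 (2.13 to 17.5), and it was 15.7 without dog 3 and 1.68 (0.0413 to 10.03) without dog 2.

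Detection of GATA3, the transcription factor of type 2 helper cells (4211 CD4 sp cells), or of CD69, an early activation antigen (6704 cells), gave no call for these genes. Cells with GATA3 were deeper, with medians of 4137.5 to 4616 UMIs against 3633.5 to 3878. Those with CD69 were deeper as well, at 4002.5 to 4550.5 against 3490.5 to 3770 UMIs. TNFRSF4 stood at 16.4, 12.4, 14.7 and 18.0 CPM with GATA3 and at 10.2, 11.3, 11.9 and 15.1 CPM without it, higher in each dog but short of the threshold (0.32 ± 0.12, adjusted p = 0.0904, where 10.1% of 9667 genes passed). CD28 (0.05 ± 0.04, adjusted p = 0.558) and CD40LG (-0.04 ± 0.05, adjusted p = 0.725) gave 95% intervals from -0.04 to 0.13 and from -0.13 to 0.06. With CD69, only 1.22% of 9734 genes passed. TNFRSF4 was at 10.2, 11.5, 11.4 and 14.8 CPM with CD69 and 14.0, 12.0, 15.4 and 18.1 CPM without it, lower in each dog without a call (-0.30 ± 0.11, adjusted p = 0.244). CD28 gave -0.05 ± 0.04 (adjusted p = 0.725) and CD40LG -0.10 ± 0.05 (adjusted p = 0.461). The study reported elevated CD40LG in its GATA3+ cluster that lacked FOXP3, and a trend towards more in its cluster high in CD69. Those clusters were set by many genes. The gates here follow detection of GATA3 or CD69 alone, and the GATA3+ gate includes FOXP3+ cells. A split by GATA3 among CD4 sp cells without FOXP3 was made too, and its values are not given here.

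Relatives of the genes were called in the GATA3 split. TNFRSF18 was higher at 0.51 ± 0.12, the adaptor TRAF1 at 0.37 ± 0.11 and the death receptor FAS at 0.31 ± 0.05, and CD274 (PD-L1, -0.76 ± 0.24), TNFSF8 (-0.45 ± 0.06) and LTB (-0.26 ± 0.03) were lower. FAS was the only listed gene called with CD69, at -0.21 ± 0.05.

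The V(D)J libraries allowed the cells to be ordered by clone, a clone being the cells of a dog that share the TRB V gene, J gene and junction. The size of a clone was counted over all kept cells of the dog with exactly 1 TRB, whatever their gate, so a clone may hold fewer cells of a gate than its size. Of CD4 sp cells, 2568 belonged to expanded clones of at least 2 cells and 7236 to singletons, and of CD8A sp cells 3546 and 1549. For CD8A sp cells, CD28 stood at 19.5, 47.5, 44.9 and 23.8 CPM in expanded clones and at 47.0, 76.7, 63.8 and 74.0 CPM in singletons. It was lower in expanded clones of each dog, with ranges that overlapped between 47.0 and 47.5 CPM (log2 fold change -0.99 ± 0.16, adjusted p = 0.00198, where 6.56% of 8289 genes passed). Without the block the value was -0.97 and the call was lost (adjusted p 2.15e-14 to 0.0947 over 8 alternatives). CD40LG was at 4.67, 13.02, 15.8 and 6.16 CPM against 15.4, 19.7, 13.1 and 25.2 CPM, lower in 3 of 4 dogs (-0.85 ± 0.31, adjusted p = 0.141), and passed without dog 3 (-1.40, adjusted p 0.00123 to 0.492 over 8 alternatives). TNFRSF4 was below the filter, with 1, 0, 1 and 7 UMIs in expanded and 1, 8, 5 and 8 in singleton cells. The ratio of levels was 0.191, with a counting interval from 0.0774 to 0.431, and 0.0826 without dog 4. With no filter TNFRSF4 passed (log2 fold change -2.61, adjusted p = 0.00848). That fit had 40044 degrees of freedom against 13.5 with the filter, so the gene's own spread over the dogs hardly entered this p-value.

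CD28 in CD4 sp cells was higher in expanded clones. It stood at 137, 139, 139 and 168 CPM in expanded clones and at 98.1, 119.9, 114 and 150.4 CPM in singletons, higher in each dog (0.23 ± 0.07, adjusted p = 0.0346, where 15.6% of 9363 genes passed). The step was small and the call was lost in 7 of 8 alternatives (adjusted p 0.038 to 0.352), including each of the analyses without a dog (0.19 to 0.27). CD40LG did not pass (0.05 ± 0.08, adjusted p = 0.721). Expanded CD4 sp cells were deeper, with medians of 3923, 4739, 4719 and 4456 UMIs against 3814.5, 3916, 3871.5 and 3928 in singletons of dogs 1 to 4. Whether the effect of expansion differed between the lineages was not tested.

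TNFRSF4 was lower in expanded CD4 sp clones of dogs 2 to 4. It stood at 20.1, 9.11, 5.38 and 6.37 CPM in expanded clones and at 11.9, 13.5, 15.8 and 25.2 CPM in singletons. Dog 1, which had 132 expanded cells with 11 UMIs, was the exception (-1.17 ± 0.29, adjusted p = 0.0158). The call was lost in 4 of 8 alternatives (adjusted p 8.66e-09 to 0.217), including those without dog 3 (-1.08) and without dog 4 (-0.65).

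Clone size was then divided further, as a description added after the values above were seen. Clones of 2 to 4 cells held TNFRSF4 at 20.2, 18.8, 11.3 and 12.2 CPM. Clones of 5 to 19 cells held 3, 1 and 8 UMIs (1.999, 1.74 and 4.74 CPM) and clones of at least 20 cells 1, 0 and 6 UMIs (1.73, 0 and 3.095 CPM) in dogs 2 to 4, while dog 1 had 1 CD4 sp cell in clones of 5 or more cells. In each of dogs 2 to 4 the larger clones were below those of 2 to 4 cells. The CD4 sp cells of these dogs came from 7, 9 and 17 clones of at least 20 cells (115, 131 and 411 CD4 sp cells) and 59, 29 and 64 clones of 5 to 19 cells (316, 113 and 385 CD4 sp cells).

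Within dogs 2 to 4, the level of TNFRSF4 in CD4 sp clones of 5 to 19 cells was 0.148, 0.110 and 0.188 times that of the dog's own singletons, and in clones of at least 20 cells 0.128, 0 and 0.123 times. In clones of 2 to 4 cells it was 1.70, 1.39, 0.712 and 0.485 times the singleton level in dogs 1 to 4, higher in 2 dogs and lower in 2. CD28 was at 1.40, 1.11, 1.31 and 1.16 times the singleton level in clones of 2 to 4 cells of dogs 1 to 4. In dogs 2 to 4 it was at 1.27, 1.16 and 1.15 times in clones of 5 to 19 cells and at 1.01, 1.14 and 1.06 times in clones of at least 20 cells. FOXP3 was detected in 1.62, 8.61 and 1.13% of cells in clones of at least 5 cells and in 6.33, 7.32 and 6.53% of singletons of dogs 2 to 4. Among cells without FOXP3, TNFRSF4 stood at 1.96, 0.879 and 3.62 CPM in clones of at least 5 cells and at 11.9, 14.9 and 23.9 CPM in singletons of these dogs. Without the largest clone, the expanded cells of dogs 1 to 4 held TNFRSF4 at 20.7, 9.61, 6.16 and 6.36 CPM.

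**Figure D3:**
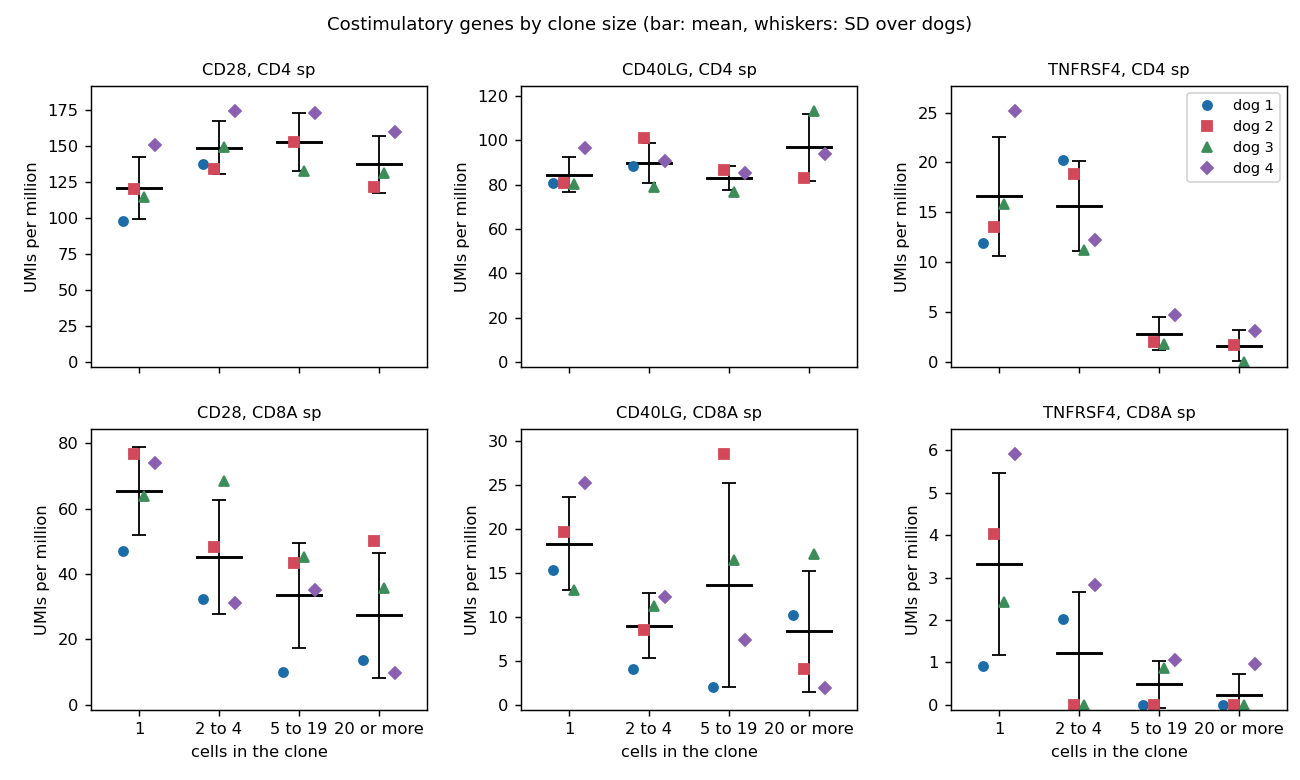
Levels (CPM) of CD28, CD40LG and TNFRSF4 (vertical axes, linear) by the number of cells in the clone (horizontal axes) for CD4 sp cells (top) and CD8A sp cells (bottom), with a symbol for each dog that has at least 20 such cells, a bar for the mean and whiskers for the SD. TNFRSF4 in CD4 sp cells lies between 11.3 and 20.2 CPM in clones of 2 to 4 cells and at or below 4.74 CPM in the larger clones of dogs 2 to 4.

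Among the relatives in expanded CD4 sp clones, TNFRSF18 (-1.21 ± 0.22), the ligand of RANK TNFSF11 (-1.84 ± 0.48) and TNFSF13B (-1.07 ± 0.17) were lower, and CD70 (1.56 ± 0.20), TNFSF14 (1.06 ± 0.29) and TNFRSF1B (0.90 ± 0.19) were higher. Of 9 TNF receptors tested, 3 were higher and 3 lower, and of 13 TNF ligands 4 were higher and 4 lower. The shares over all genes tested were 8.21% higher and 7.36% lower. Expanded CD8A sp clones had calls in the same lists, where TNFRSF18 (-2.36 ± 0.37), CTLA4 (-1.55 ± 0.20) and PRKCQ (-0.57 ± 0.09) were lower and FASLG was higher at 0.74 ± 0.14.

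**Figure D4:**
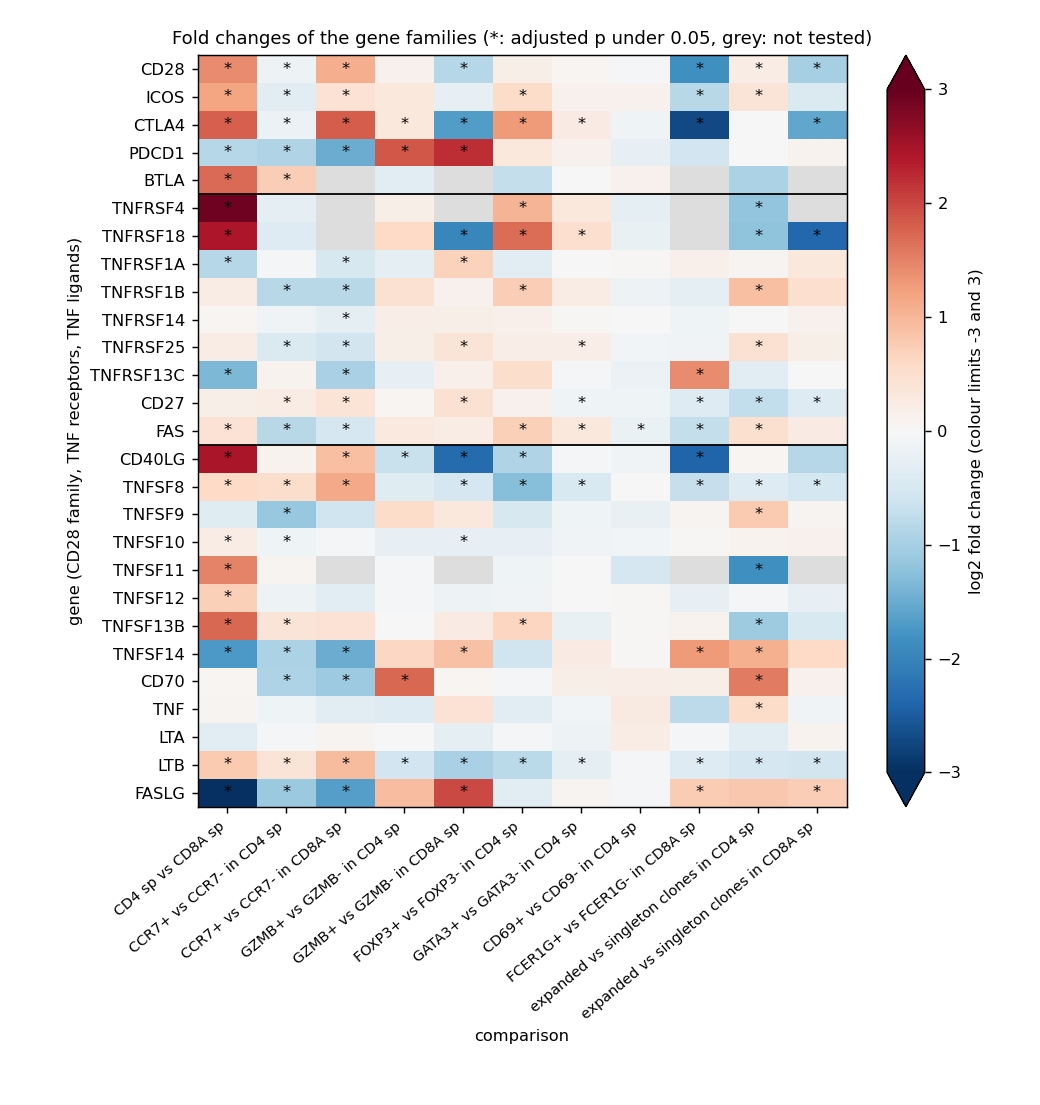
Log2 fold changes (colour, limits -3 and 3) of the members of the CD28 family, the TNF receptors and the TNF ligands that passed the filter (vertical axis) in 11 comparisons (horizontal axis), with an asterisk for an adjusted p below 0.05 and grey where a gene was not tested. TNFRSF18 was called in the same direction as TNFRSF4 in the 3 comparisons in which TNFRSF4 was called, namely at 2.43, 1.67 and -1.21.

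The B7 family, which holds the ligands of CD28 and CTLA4, was little detected in these T cells. Of 6 genes listed, CD80 and CD274 passed the filter, and TNFSF4 and CD40, the partners of TNFRSF4 and CD40LG, did not pass in the comparison of CD4 sp with CD8A sp cells. CD274 was higher in CD4 sp cells at 0.59 ± 0.19, and CD80 gave 0.20 ± 0.16 without a call.

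The genes most like each of the 3 were sought among 6165 genes by the correlation of log2(CPM + 10), averaged over dogs, across the 7 gates that share no cell. The points share libraries, and 3 of 7 are CD8A sp gates with low values, so these are descriptions. CD28 was most like CTSB (r = 0.995), FYB1 (0.991), CLINT1 (0.988), CD5 (0.988) and ENSCAFG00000014766 (0.987). CD40LG was most like GLT8D2 (0.995), NINJ1 (0.988), NISCH (0.9748), TMEM254 (0.974) and PACS1 (0.971). TNFRSF4 was most like SRD5A3 (0.993), CAB39 (0.988), ENSCAFG00000005537 (0.987), CYFIP2 (0.987) and MARCHF2 (0.984). Between the 3 genes, r was 0.90 for CD28 with CD40LG, 0.89 for CD28 with TNFRSF4 and 0.70 for CD40LG with TNFRSF4.

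Within CD4 sp cells, the 3 transcripts were detected together somewhat more often than their separate shares predict before depth was equalised. CD28 and CD40LG were found together in 1519 cells, where 1344 would be found if detection were independent within each dog. The ratio of found to expected cells, taken in each dog and then averaged, was 1.14 ± 0.04 (SD, n = 4). All ratios below are such means. CD28 with TNFRSF4 gave 276 cells and a ratio of 1.25 ± 0.22, and CD40LG with TNFRSF4 184 cells and 1.20 ± 0.14. Cells differ in depth, and at 2000 UMIs per cell the ratios were 1.08 ± 0.06, 0.860 ± 0.406 and 1.30 ± 0.69. The ratios with TNFRSF4 rest on 30 and 35 cells. In CD8A sp cells CD28 and CD40LG were found together in 116 cells where 49.3 would be found. The ratios of dogs 1 to 4 were 3.96, 1.68, 2.41 and 3.16, with a mean of 2.80 ± 0.98. At 2000 UMIs per cell CD28 and CD40LG were found together in 14 cells, with a mean ratio of 1.56 ± 0.28. These were 1, 4, 4 and 5 cells of dogs 1 to 4, where 0.572, 3.16, 2.89 and 2.72 would be found. Pairs with TNFRSF4 were found in 19 and 11 CD8A sp cells, and in 3 and 1 after thinning.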

How the data were processed

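The authors aligned 5' single-cell reads to CanFam 3.1 with Cell Ranger 5.0.1 and deposited the UMI counts of each gene in each cell without normalization, and tables of productive rearrangements. The deposited rearrangement tables served only to define clones. The gene list of dog 1 has 27980 lines, more than its matrix, so the list of the other dogs was used for all 4 matrices of 20257 genes (row totals correlated at r = 0.989 to 0.991 between dog 1 and the others). Cells with 500 to 20000 UMIs and at most 10% mitochondrial UMIs were kept, as in the study's methods. Doublets were not called, and cells with exactly 1 TRB served as an alternative.

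UMI counts were summed per dog and gate (gates of at least 20 cells in at least 3 dogs) and tested with edgeR 4.0.16 (TMM, filterByExpr, quasi-likelihood) in R 4.3.3, with Benjamini-Hochberg adjustment. Each SE of a log2 fold change was calculated back from that value and its quasi-likelihood F statistic. The 95% intervals of log2 values were built from these SEs. Fits with the filter had from 8.08 (CD4 sp against CD8A sp) to 97.3 (GZMB in CD4 sp) degrees of freedom. The more there are, the less a gene's own spread over the dogs weighs in its p-value. The genes that define a gate were left out of counts. Gates of a dog come from the same animal and library, so the dog was a block. Alternatives were DESeq2 1.42.0, no filter, no block, leaving out each dog, thinning to 2000 UMIs (with gates set again on the thinned counts) and cells with 1 TRB. Scripts were tested on simulated data. Counting intervals are exact, at 95%, and cover counting error only. Members, lists and gates were chosen with earlier results of these data known. In each comparison, up to 3 listed genes per direction with the largest change past the threshold were named, beside the 3 members and the 5 most alike genes. PDCD1, ZAP70, CD274 and CD80 (CD4 sp against CD8A sp) and CTLA4 (CCR7 in CD4 sp) lie outside that rule and were chosen after their values were seen. Coordinates and sequences are not used here, and 1 listed gene is not reported here by name.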

Additional observations from a re-analysis of the deposited data

Results flagged for a closer look

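In 93 combinations of a member and a gate with 4 dogs, the most distant dog was compared with the other 3, and 8 stood apart by Dixon's criterion, where about 1 in 20 (4.65) are flagged by chance. CD40LG was low in FOXP3+ CD4 sp cells of dog 1 (23.5 CPM from 12 UMIs, against 50.8 to 53.4 CPM) and high in FCER1G+ CD8A sp cells of dog 2 (6.87 CPM from 11 UMIs, against 2.53 to 3.16 CPM). Dog 4 accounted for the other 6, and was the highest dog in each. It had CD28 at 168 CPM in expanded CD4 sp clones (against 137 to 139 CPM). Its CD40LG stood at 96.4 CPM in singleton CD4 sp clones (against 80.3 to 80.7 CPM), at 50.5 CPM in CCR7+ CD8A sp cells (26 UMIs, against 18.6 to 23.8 CPM) and at 64.7 CPM in those of them without GZMB (23 UMIs, against 19.7 to 23.8 CPM). Its TNFRSF4 was at 36.0 CPM in FOXP3+ CD4 sp cells (27 UMIs, against 21.4 to 22.6 CPM) and at 2.26 CPM in FOXP3- CD8A sp cells (18 UMIs, against 1.29 to 1.42 CPM).

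Effects differed between CD4 sp and CD8A sp cells by a test of the difference itself for CD28 with CCR7 (-1.28, log2) and for CD40LG with GZMB (1.597). Dog 4 is the only dog of 9 years, so that its age and its library cannot be told apart.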

How the results depend on the processing

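Over 308 alternative values for 35 results of the members, 269 kept their direction and their side of the threshold, and 8 of the 18 calls kept them under every alternative run. Without the replicate block, although the pairing is given by the animals, 8 calls were lost, with log2 values of -0.16 (CD28, CCR7 in CD4 sp), 0.98 (CD40LG, CCR7 in CD8A sp), -0.88 (CD28, GZMB in CD8A sp), 0.26 and -1.05 (CD28 and TNFRSF4, expanded CD4 sp), -0.97 (CD28, expanded CD8A sp), -1.28 (CD28, difference of CCR7) and 1.62 (CD40LG, difference of GZMB), and the number of genes called fell in each of 13 comparisons, for instance from 2233 to 5 for CCR7 in CD4 sp. DESeq2 lost CD28 with CCR7 in CD4 sp (-0.16) and CD28 and TNFRSF4 in expanded CD4 sp clones (0.23 and -0.93) and gained CD28 in the difference of GZMB (1.02). With no filter, CD40LG in expanded CD8A sp (-0.83) and CD28 in the difference of GZMB (0.93) were gained, and TNFRSF4, untested with the filter, passed for GZMB (-1.53) and clones (-2.61) in CD8A sp and not for CCR7 (1.10) and FCER1G (-2.80). The no-filter fits of GZMB and of clones in CD8A sp cells had 40698 and 40044 degrees of freedom. Each gene's own spread over the dogs hardly entered those p-values. Thinning leaves fewer cells and UMIs, and gates were set again on the thinned counts. It reversed CD40LG with CCR7 in CD4 sp (-0.038), TNFRSF4 with GZMB in CD4 sp (-0.11), CD28 with FOXP3 (-0.12) and CD40LG with GATA3 (0.048), none of them called, and lost CD28 with CCR7 in CD4 sp (-0.17), CD40LG with GZMB in CD4 sp (-1.003), TNFRSF4 with FOXP3 (0.86), CD28 in expanded CD4 sp (0.17) and CD40LG in the difference of GZMB (1.04). The thinned fits of GZMB in CD4 sp cells and of the difference of GZMB held dogs 2 to 4 only. Dog 1 had 17 GZMB+ CD4 sp cells left there. CD40LG did not pass the filter after thinning in the CCR7 and FCER1G splits of CD8A sp cells. With cells of exactly 1 TRB, CD28 with CCR7 in CD4 sp (-0.15) and CD40LG with CCR7 in CD8A sp (0.50) were lost.

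Leaving out each dog gave -0.21 to -0.10 (CD28) and -0.65 to -0.0062 (TNFRSF4) for CCR7 in CD4 sp, 0.43 to 1.24 for CD40LG with CCR7 in CD8A sp, 0.19 to 0.27 (CD28) and -1.44 to -0.65 (TNFRSF4) for expanded CD4 sp, -1.40 to -0.42 for CD40LG in expanded CD8A sp, and 0.69 to 1.23 (CD28) and 1.40 to 1.82 (CD40LG) for the difference of GZMB. The causes were not tested. Numbers of called genes ranged over the alternatives from 1427 to 3006 for CD4 sp against CD8A sp, 5 to 2498 and 700 to 1633 for CCR7 in CD4 sp and CD8A sp, 155 to 983 and 663 to 2002 for GZMB, 139 to 1449 for FOXP3, 15 to 1329 for GATA3, 0 to 153 for CD69 (edgeR without the block called 0, with 109 genes at an unadjusted p under 0.05, and DESeq2 called 13), 163 to 798 for FCER1G, 500 to 1933 and 88 to 875 for clones, and 20 to 371 and 4 to 402 for the differences of CCR7 and GZMB. Shares of cells with a UMI moved by more than 1 SD in 80 of 87 values after thinning, co-detection included. Fewer UMIs per cell lower such shares by construction, so this count says little about how far the results hold. FOXP3 in CD8A sp cells was not run.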

Other observations

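Splits of CD4 sp cells that were added after the comparisons above are given as values without a test. Only those by MKI67, IKZF2 and KLRK1 are described in detail. Splits by CTLA4, CCR4, LGALS3, GPR25, CXCR3, GZMK and PDCD1 were made too, and their means close this paragraph. Values given at 2000 UMIs per cell come from gates set again on the thinned counts, where a cell can leave the positive gate. Cells with MKI67, a gene of dividing cells (344 cells), held CD40LG at 40.04, 35.2, 23.1 and 55.6 CPM in dogs 1 to 4, where cells without it averaged 86.7 CPM, and CD28 at 163, 138, 115 and 184 CPM. They were deeper (medians of 4890.5 to 6312 against 3722 to 4074.5 UMIs), and at 2000 UMIs per cell CD40LG averaged 64.5 CPM (22.7 to 95.2, from 18 UMIs) against 87.9 CPM, with overlapping ranges. Cells with IKZF2 (Helios, 863 cells), a factor of regulatory T cells, held CD40LG at 40.5, 62.5, 49.6 and 49.9 CPM and TNFRSF4 at 21.7, 18.3, 26.9 and 26.7 CPM, where cells without it averaged 87.8 and 12.3 CPM. Their medians were 4606 to 5253 against 3714 to 4052 UMIs, and at 2000 UMIs per cell CD40LG averaged 59.0 against 88.6 CPM and TNFRSF4 16.0 CPM (5.75 to 31.7, from 8 UMIs) against 11.9 CPM. Cells with KLRK1 (NKG2D, 1165 cells), an activating receptor of cytotoxic cells, held TNFRSF4 at 7.76, 5.09, 3.30 and 4.58 CPM against 12.1, 12.8, 15.2 and 17.9 CPM without it, lower in each dog, while CD28 averaged 133 and 128 CPM. Their medians were 4548 to 5206 against 3744 to 4014 UMIs, and at 2000 UMIs per cell 2 UMIs of TNFRSF4 were left in the KLRK1+ cells of 3 dogs. In the other splits, mean TNFRSF4 was higher with CCR4 (25.4 against 12.6 CPM), PDCD1 (21.8, 12.8) and CTLA4 (17.7, 10.98). It was also higher with CXCR3 (17.6, 12.7) and GPR25 (17.3, 12.7), and lower with LGALS3 (12.5, 13.7) and GZMK (10.5, 13.6). Mean CD40LG was lower with PDCD1 (68.3 against 85.7 CPM), GZMK (71.1, 86.4), CTLA4 (78.6, 87.5), CCR4 (82.9, 84.9) and LGALS3 (83.97, 84.7). It was higher with GPR25 (92.1, 83.6) and CXCR3 (85.1, 84.5).

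In CD8A sp cells, IL7R, the receptor of interleukin 7 on resting cells, split CD40LG into 27.1, 33.7, 25.5 and 25.5 CPM with it (2862 cells) and 1.16, 4.97, 3.79 and 2.97 CPM without it, and CD28 into 57.0, 78.2, 75.1 and 60.4 CPM and 20.9, 47.4, 17.5 and 25.8 CPM. Neither pair of ranges overlapped. Cells with IL7R were deeper (medians of 4168 to 4587 against 3023 to 3680.5 UMIs). At 2000 UMIs per cell the means of CD40LG were 24.0 and 6.76 CPM, from 28.0 and 3.22 CPM, and those of CD28 were 68.2 and 29.0 CPM. These gates were set again on the thinned counts, so cells that lost their IL7R UMIs counted as IL7R-. The part of depth and of this change of gate was not tested. CD8A sp cells were also split by GZMK, KLRK1, TOX, PDCD1 and MKI67, and those values are not given here.

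The order of the dogs for CD28 was not the same in every gate. Dog 1 was lowest and dog 4 highest in CD4 sp cells (99.4 and 161 CPM) and in double-negative cells (100.2 and 161 CPM), whereas in CD8A sp cells dog 1 was lowest (35.0 CPM), dog 2 highest (65.0 CPM) and dog 4 second lowest (40.1 CPM), and in FOXP3+ CD4 sp cells dog 2 was highest (169.6 CPM) with dog 4 at 137 CPM. With 4 dogs of 3 ages, age was not tested.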
